A study of Saccharomyces cerevisiae with 4 samples.

Results

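The small-subunit processome is the large particle that forms on the nascent ribosomal RNA precursor in the nucleolus and prepares the 18S rRNA of the small ribosomal subunit. The genes described here are 45 of the 7127 features in the count files, chosen by a fixed list of systematic names. They take in the UTP genes, PWP2, DIP2, SOF1, IMP3, IMP4, MPP10, BMS1, NOP14 and other factors of this particle, also called the 90S pre-ribosome, together with the box C/D proteins Nop1, Nop56, Nop58 and Snu13. All 45 were found, each under its own name in the R64 annotation, and all passed the filter on low counts.

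Their messenger RNA was compared between Saccharomyces cerevisiae BY4741, with the markers MATa, his3-1, leu2-0, met15-0 and ura3-0, and a derivative that carries the same markers and the TOR1 deletion YJR066w::kanMX4. Both strains grew at 30 °C with shaking in yeast nitrogen base with 2% dextrose, 0.5% ammonium sulfate, histidine, leucine, methionine and uracil, to an OD600 of 0.5 to 0.7, and every sample title gives 4 h. The comparison asks what loss of TOR1, a kinase of TOR complex 1, does to the transcriptome. There were 2 libraries per strain, and the labels do not say that they came from separate cultures or clones, so the p-values rest on a spread between libraries that may be technical.

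As background, the processome assembles step by step on the 5′ external transcribed spacer of the precursor. UtpA binds first, UtpB and the U3 small nucleolar ribonucleoprotein follow, and U3 RNA then base-pairs with the precursor and keeps it from folding too early. Helicases and a GTPase later take the particle apart and release the pre-40S subunit. In yeast, TOR complex 1 signals through Sch9, Sfp1 and the repressors Stb3, Dot6 and Tod6 to the promoters of ribosome synthesis genes, of which the processome genes are a part.

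Library totals were 14446057 and 9623963 counts in wild-type libraries 1 and 2 and 8060480 and 10244377 in deletion libraries 1 and 2. The strain labels held where checked. TOR1 had 635 and 357 counts in the wild type against 0 and 1 in the deletion. LEU2 had none anywhere, and URA3 had 1 count, in wild-type library 1. MET17, also called MET15, had 3 in each wild-type library and 0 in each deletion library. HIS3 was not checked. The MATa genes MFA1, MFA2, STE2 and BAR1 had between 2835 and 45795 counts per library. The MATalpha genes MF(ALPHA)1, MF(ALPHA)2 and STE3 had between 9 and 179. The replicates of a strain differed by more than sampling noise, and more so in the deletion. Chi-square over its degrees of freedom was 19.1 in the wild type (6444 genes) and 70.6 in the deletion (6175 genes).

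The processome genes were lower in the tor1 deletion almost throughout. Of the 45 genes, 42 fell, none rose, and 3, MPP10, RRP7 and ESF1, did not pass the test (quasi-likelihood test of edgeR, threshold 0.05 on the Benjamini-Hochberg adjusted p over 6197 genes). Over all tested genes 24.9% were called lower, 26.9% were called higher and 51.8% were called in either direction, while 93.3% of the processome genes were called lower. The median log2 fold change of the 45 genes was -1.44, a 2.72-fold reduction, beside -0.02 for all tested genes. A fall of at least 2-fold was called for 37 of the 45 genes, against 16.1% of all genes. Both deletion libraries lay below both wild-type libraries for 43 of the 45 genes, the exceptions being MPP10 and ESF1, against 40.2% of all genes. In the ranking of all tested genes by fold change, 12 of the 45 were among the lowest 5%, 24 among the lowest 10% and 42 among the lowest 25%. These counts are relative to the whole messenger pool. In such bulk samples fewer cells that express a gene and less of its RNA per cell cannot be told apart.

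As a share of all counts, which scales each library by its total, the 45 genes together took 0.259% of all counts in wild-type library 1 (Wilson 95% interval 0.256% to 0.261%) and 0.261% in wild-type library 2 (0.258% to 0.265%). They took 0.0832% in deletion library 1 (0.0812% to 0.0852%) and 0.0900% in deletion library 2 (0.0882% to 0.0918%). The strain means were 0.260% ± 0.00188 and 0.0866% ± 0.00480 (SD, n = 2 each), a ratio of 3.00. The gap between the strains was far wider than the gap between the libraries of either strain. The intervals hold counting error alone and leave out variation between libraries. Reads amplified by PCR and not tagged by molecule can repeat one molecule, so the intervals may be too narrow even for counting error. Cytosolic ribosomal protein genes, which take a large part of the counts, also differed between the strains. With them left out of the denominator the shares were 0.320% ± 0.00378 and 0.0910% ± 0.00436, a ratio of 3.52.

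How the calls divide over all genes depended on the scaling. With the TMM factors used throughout, 1665 genes were higher and 1543 lower. Scaling by library totals gave 1179 higher and 2328 lower, and scaling by the upper quartile gave 1110 higher and 2508 lower. These 2 scalings moved the median of all genes from -0.02 to -0.35 and -0.41.

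**Figure D1:**
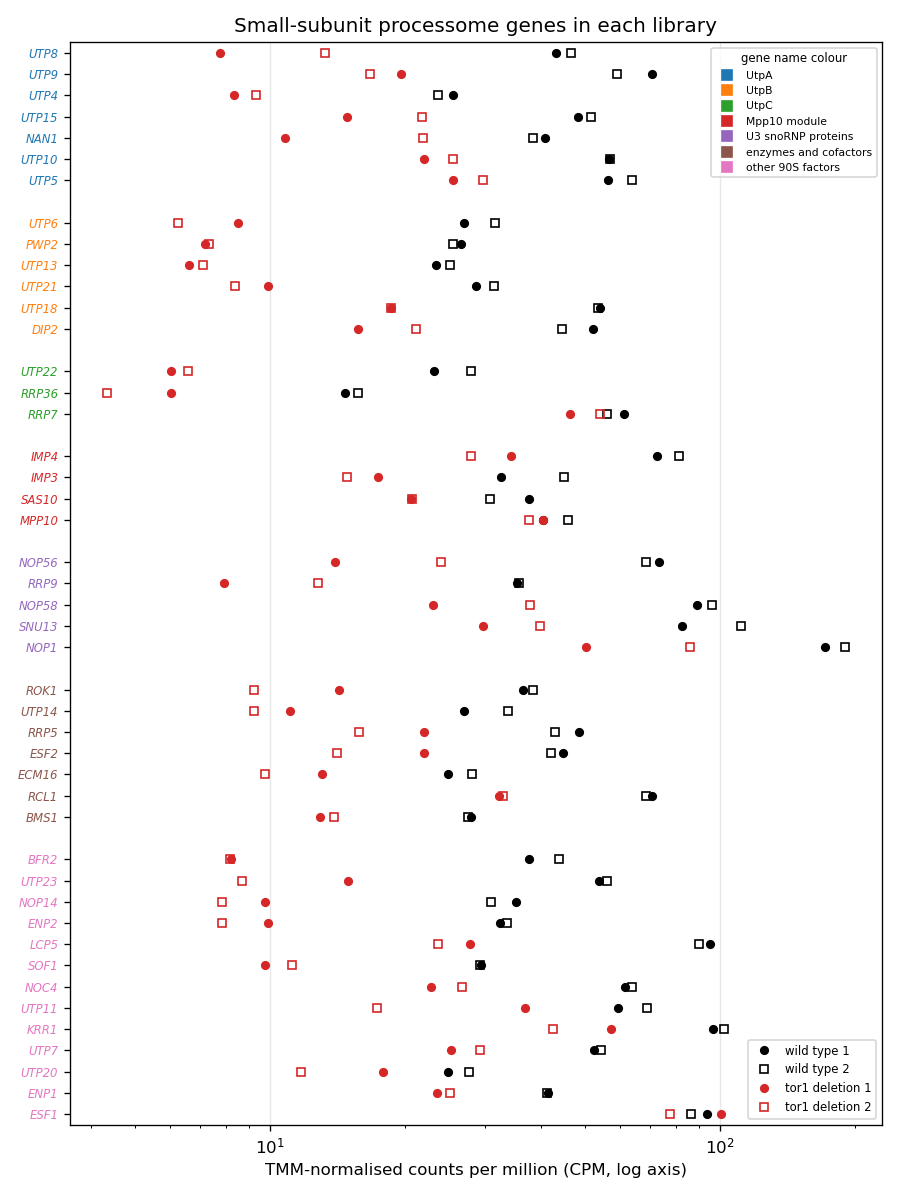
TMM-normalised CPM (log axis) of the 45 genes in each of the 4 libraries, grouped by module, with gene names coloured by module. Wild-type libraries (black) lie to the right of deletion libraries (red) for 43 genes, and MPP10 and ESF1 are the exceptions.

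The U3 particle proteins are described first. The box C/D core is shared by all methylation-guide snoRNAs and U3: Nop1 is the methyltransferase known as fibrillarin, Nop56 and Nop58 are its paired scaffold proteins, and Snu13 binds the kink-turn of the RNA. Rrp9 is specific to U3. All 5 genes fell, with a median log2 fold change of -1.60.

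NOP1 (YDL014W, chromosome IV, 427364 to 428347 on the plus strand of R64) was at 171 and 189.7 CPM in the wild-type libraries and at 50.3 and 85.8 CPM in the deletion libraries, where CPM is the count relative to the TMM-scaled library total. NOP56 was at 73.3 and 68.6 CPM in the wild type and at 13.9 and 24.0 CPM in the deletion. NOP58 was at 88.7 and 96.2 CPM against 23.0 and 37.8 CPM. In each of these genes both deletion libraries were well below the wild type, and deletion library 1 was the lower of the pair. SNU13 was at 82.3 and 111 CPM in the wild type and at 29.7 and 39.9 CPM in the deletion. RRP9 was at 35.3 and 35.7 CPM against 7.90 and 12.8 CPM. Deletion library 1 was the lower for all 5 genes of the particle and for 24 of the 45 genes. The changes, given throughout as log2 fold change of deletion over wild type ± SE, ran from -1.89 ± 0.27 for NOP56 (adjusted p = 0.00159) to -1.40 ± 0.26 for NOP1 (adjusted p = 0.00465), with RRP9 at -1.77 ± 0.27, NOP58 at -1.60 ± 0.25 and SNU13 at -1.47 ± 0.23.

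U3 RNA itself is encoded by SNR17A and SNR17B. The libraries were made from poly(A)-selected RNA, and mature U3 carries no poly(A) tail, so these counts need not reflect the mature RNA. SNR17A (snR17a) had 2736 and 1598 counts in wild-type libraries and 409 and 204 counts in deletion libraries, a change of -1.99 ± 0.42 (adjusted p = 0.00721). SNR17B had 145 and 104 counts against 15 and 4, a change of -2.94 ± 0.57 (adjusted p = 0.00516). The genes are copies of one another, and how reads were shared out between them is uncertain. Neither overlapped between the strains. Without deletion library 1 the changes were -2.87 for SNR17A and -4.41 for SNR17B, and without deletion library 2 they were -1.43 and -2.10.

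UtpA is the subcomplex that binds the precursor first. Its 7 subunit genes all fell, between -2.08 and -1.12, with a median of -1.44. UTP9 (YHR196W, chromosome VIII, 491931 to 493658, plus strand) had the smallest p of the group. It was at 70.8 and 59.1 CPM in the wild-type libraries and at 19.5 and 16.7 CPM in the deletion libraries, a change of -1.84 ± 0.20 (adjusted p = 0.000607). NAN1, also called UTP17 (YPL126W, chromosome XVI, 310210 to 312900, plus strand), had the largest p. It was at 40.9 and 38.5 CPM against 10.8 and 21.9 CPM, a change of -1.27 ± 0.33 (adjusted p = 0.0158). Both deletion libraries of NAN1 lay below the wild type but far from each other, and its change was -0.85 without deletion library 1 and -1.88 without deletion library 2. The changes of the other subunits were -2.08 ± 0.28 for UTP8, -1.47 ± 0.23 for UTP4, -1.44 ± 0.24 for UTP15, -1.26 ± 0.19 for UTP10 and -1.12 ± 0.19 for UTP5.

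UtpB, which bridges the spacer and U3 RNA, had a median of -1.77. All 6 genes fell, between -2.0 and -1.39. UTP18 (YJL069C, chromosome X, 310922 to 312706, minus strand) was at 54.2 and 53.5 CPM in the wild type and at 18.5 and 18.6 CPM in the deletion, so that replicates were nearly equal and the strains far apart. Its change was -1.53 ± 0.18 (adjusted p = 0.000836), the smallest p of the group. DIP2, also called UTP12 (YLR129W, chromosome XII, 399657 to 402488, plus strand), had the largest p and was at 52.3 and 44.6 CPM against 15.7 and 21.2 CPM, a change of -1.39 ± 0.23 (adjusted p = 0.00264). The changes of the other subunits were -2.0 ± 0.26 for UTP6, -1.84 ± 0.23 for PWP2, -1.82 ± 0.23 for UTP13 and -1.72 ± 0.23 for UTP21.

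UtpC, a subcomplex that joins later and whose genes are also studied in ribosomal protein gene control, was split. UTP22 (YGR090W, chromosome VII, 662358 to 666071, plus strand) was at 23.2 and 27.9 CPM in the wild type and at 6.03 and 6.56 CPM in the deletion, a change of -2.01 ± 0.25 (adjusted p = 0.000928). RRP36 was at 14.6 and 15.7 CPM against 6.03 and 4.34 CPM a change of -1.56 ± 0.28 for this factor of early 18S cleavage. In both genes the libraries of a strain lay close together and the strains apart. RRP7 (YCL031C, chromosome III, 64675 to 65568, minus strand), whose protein pairs with Utp22, did not pass. It was at 61.3 and 56.0 CPM in the wild type and at 46.4 and 54.1 CPM in the deletion, a change of -0.22 ± 0.18 (adjusted p = 0.321). Its libraries did not overlap between strains, but the gap was no wider than the spread within the deletion. It was called lower under scaling by totals or by the upper quartile, and when deletion library 2 was left out.

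Casein kinase 2, a protein kinase with many other roles, is also part of UtpC. Of its 4 subunit genes none was called lower and 1 was called higher. Over all tested genes the shares were 24.9% and 26.9%. CKA2 rose by 0.70 ± 0.18, from 40.6 and 44.5 CPM to 63.9 and 74.2 CPM (adjusted p = 0.0150), and CKA1, CKB1 and CKB2 were at -0.15 ± 0.20, 0.23 ± 0.18 and 0.10 ± 0.19. The call of CKA2 ended under scaling by totals or the upper quartile and without either wild-type library. CKA1 was called lower under the upper quartile and without deletion library 2.

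The Mpp10 module, which joins U3 RNA and the precursor through Mpp10, Imp3, Imp4 and Sas10, had a median of -1.0. IMP4 (YNL075W, chromosome XIV, 485607 to 486479, plus strand) was at 72.4 and 81.2 CPM in the wild type and at 34.3 and 28.0 CPM in the deletion, a change of -1.30 ± 0.19 (adjusted p = 0.00176). Both deletion libraries of IMP4 were below the wild type. IMP3 changed by -1.27 ± 0.24, and SAS10, also called UTP3, by -0.73 ± 0.21 (adjusted p = 0.0235). MPP10 (YJR002W, chromosome X, 438865 to 440646, plus strand) did not pass. It was at 40.4 and 45.9 CPM in the wild type and at 40.5 and 37.6 CPM in the deletion, a change of -0.14 ± 0.18 (adjusted p = 0.525). The strains overlapped for MPP10, whereas its partner IMP4 was more than 2-fold apart. MPP10 was called lower under the upper quartile. The call of SAS10 ended without either wild-type library, and that of IMP3 ended without wild-type library 2.

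The enzymes and their cofactors drive the rearrangements and the release of the pre-40S subunit. Bms1 is a GTPase with Rcl1 as its partner, Ecm16 (Dhr1) is the helicase that removes U3 and is activated by Utp14, Rok1 is a helicase that works with Rrp5, and Esf2 activates the helicase Dbp8. All 7 genes fell, between -1.69 and -1.05, with a median of -1.28. UTP14 (YML093W, chromosome XIII, 83090 to 85789, plus strand) had the smallest p and was at 27.0 and 33.9 CPM in the wild type and at 11.1 and 9.20 CPM in the deletion, a change of -1.59 ± 0.24 (adjusted p = 0.00212). ECM16 (YMR128W, chromosome XIII, 523696 to 527499, plus strand) had the largest p and was at 24.9 and 28.1 CPM against 13.1 and 9.73 CPM, a change of -1.22 ± 0.25 (adjusted p = 0.00610). The helicase gene and the gene of its activator thus both showed deletion libraries under the wild type. The changes of the others were -1.69 ± 0.26 for ROK1, -1.29 ± 0.23 for RRP5, -1.28 ± 0.26 for ESF2, -1.09 ± 0.17 for RCL1 and -1.05 ± 0.21 for BMS1. The call of BMS1 ended without either wild-type library, and that of ECM16 ended without wild-type library 2.

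Of the 13 other factors 12 fell, and this group held both the steepest and the flattest change of all 45 genes. BFR2 (YDR299W, chromosome IV, 1059627 to 1061231, plus strand), whose protein forms a unit with Enp2 and Lcp5, was at 37.6 and 43.9 CPM in the wild-type libraries and at 8.19 and 8.15 CPM in the deletion libraries. That is a 4.98-fold reduction with a log2 fold change of -2.32 ± 0.22 (adjusted p = 0.000384), rank 96 from the lowest of 6197 genes. ESF1 (YDR365C, chromosome IV, 1204497 to 1206383, minus strand) was at 93.4 and 86.3 CPM in the wild type and at 101 and 77.5 CPM in the deletion. Its deletion libraries lay on either side of the wild type, with a change of -0.01 ± 0.19 (adjusted p = 0.952). The partner genes ENP2 and LCP5 changed by -1.90 ± 0.23 and -1.85 ± 0.18. NOP14, also called UTP2, changed by -1.92 ± 0.24 and its partner gene NOC4 by -1.34 ± 0.18. UTP23, a factor linked to release of the snR30 snoRNA, changed by -2.23 ± 0.28, and SOF1, the gene of a WD-repeat protein, by -1.48 ± 0.22. UTP11 changed by -1.25 ± 0.34, from 59.2 and 68.9 CPM to 36.9 and 17.2 CPM, by -1.88 without deletion library 1 and by -0.79 without deletion library 2. It was among the 11 genes whose deletion libraries were more than 1.5 times apart, while none of the 45 had wild-type libraries that far apart. The share of all genes with such a gap was not counted, and the deletion libraries also differed more across all genes. Falls of under 2-fold were called for 5 genes in all, 4 of them in this group: KRR1, the gene of a KH-domain protein, at -0.997 ± 0.199, UTP7 at -0.97 ± 0.18, UTP20 at -0.84 ± 0.26 and ENP1 at -0.76 ± 0.19. Enp1 is one of the few factors that stay on the pre-40S particle into the cytoplasm. The calls of UTP20 and ENP1 ended without either wild-type library, and that of UTP7 ended without wild-type library 2.

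**Figure D2:**
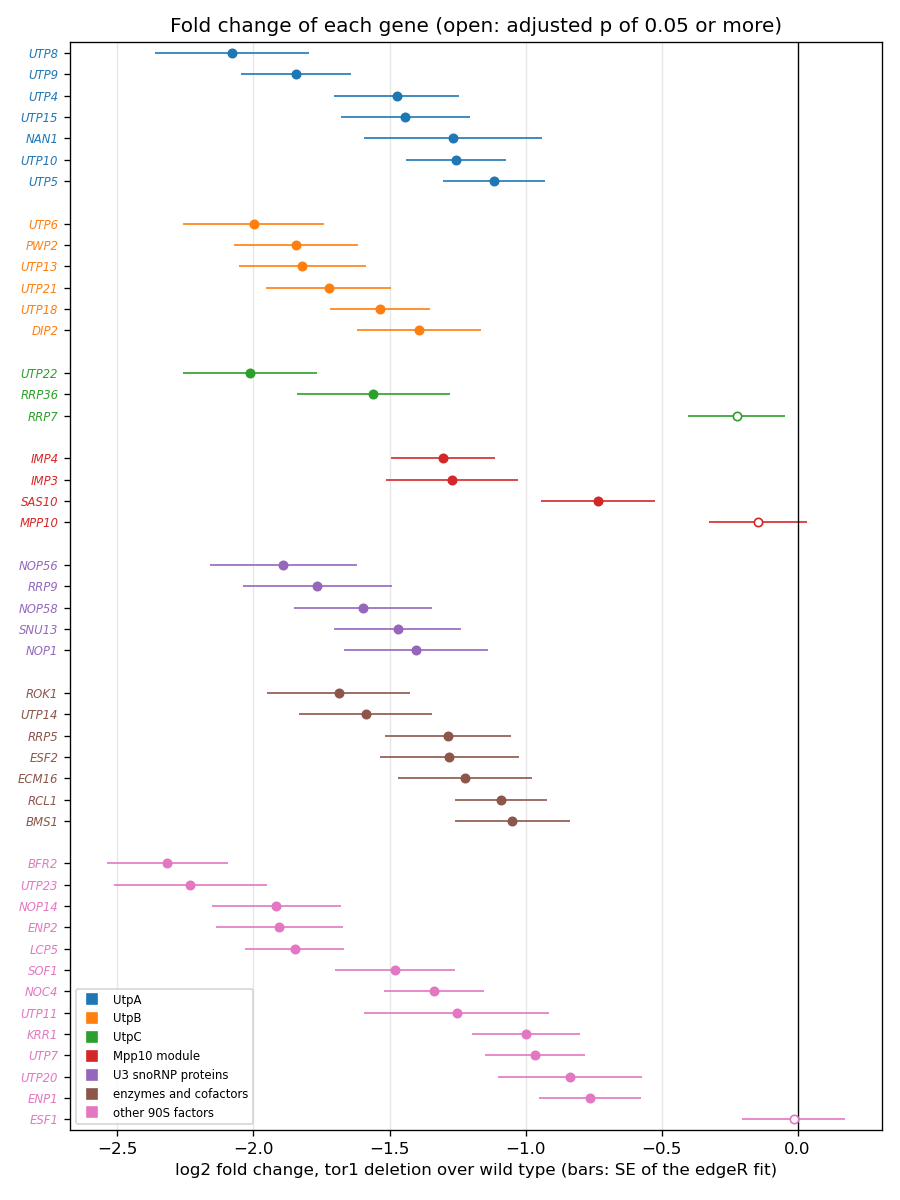
Log2 fold change of deletion over wild type for the 45 genes with the SE of the edgeR fit as bars, grouped by module. Filled points are genes called lower, and the open points are MPP10, RRP7 and ESF1 at -0.14, -0.22 and -0.01.

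Levels were compared between genes per kilobase of coding length, and all 45 genes have 1 coding exon. In the wild type the level ran from 3.51 ± 0.275 CPM per kb for UTP20, the gene of a very large protein, to 254 ± 53.7 CPM per kb for SNU13 (SD, n = 2). NOP1 followed SNU13 at 183 ± 13.3 CPM per kb and KRR1 was next at 105 ± 4.18 CPM per kb. The wild-type libraries of these 3 genes did not overlap. In the deletion SNU13 was again highest, at 91.4 ± 18.8 CPM per kb, and NOP1 followed at 69.1 ± 25.5, with overlapping libraries. RRP7, at 56.2 ± 6.07 CPM per kb, KRR1, at 52.5 ± 10.99, and ESF1, at 47.2 ± 8.62, came next, and their libraries overlapped. UTP22, at 1.70 ± 0.100 CPM per kb, and UTP20, at 1.97 ± 0.573, had the lowest means, and their libraries overlapped. Across the 45 genes the levels in the strains correlated with a Spearman rho of 0.94, and the fold change correlated with wild-type level at 0.12 and with coding length at -0.015. These are descriptions over 45 genes measured in the same libraries.

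Subunits of one complex differed in level in both strains. Within UtpA the highest level was 3.57 times the lowest in the wild type and 3.78 times in the deletion, and within UtpB 3.21 and 3.98 times. In UtpC the ratio of RRP7 to UTP22 went from 9.54 in the wild type to 33.1 in the deletion, and the change in this ratio was not tested.

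**Figure D3:**
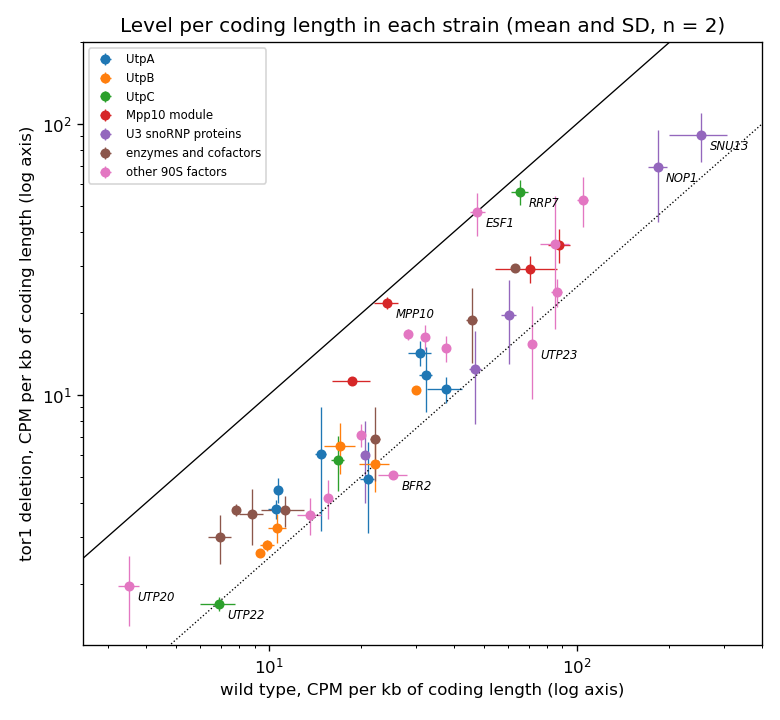
Level of the 45 genes in the wild type (horizontal) and the deletion (vertical) in CPM per kb of coding length on log axes, as mean and SD of 2 libraries, coloured by module. The solid line marks equal levels and the dotted line a 4-fold reduction. ESF1, RRP7 and MPP10 lie near the solid line and UTP22, BFR2 and UTP23 near or under the dotted line.

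The genes share promoter elements that played no part in their choice. PAC and RRPE are short elements known from promoters of yeast ribosome synthesis genes: Dot6 and Tod6 bind PAC, and Stb3 binds RRPE. Exact matches of PAC (GCGATGAG), its core (GATGAG) and the RRPE core (AAAAATTT) were sought on both strands from 250 bases before the start codon to 50 bases from it on. A full PAC match always contains a core match. The 4 promoters shown first belong to the genes with the smallest p among those that hold full PAC and the RRPE core, and capitals mark these matches. They are read 5′ to 3′ on the coding strand of R64, at chrIV:1059377-1059676 (plus) for BFR2, chrV:414231-414530 (plus) for LCP5, chrIII:223179-223478 (minus) for PWP2 and chrIV:190537-190836 (minus) for NOP14.
BFR2: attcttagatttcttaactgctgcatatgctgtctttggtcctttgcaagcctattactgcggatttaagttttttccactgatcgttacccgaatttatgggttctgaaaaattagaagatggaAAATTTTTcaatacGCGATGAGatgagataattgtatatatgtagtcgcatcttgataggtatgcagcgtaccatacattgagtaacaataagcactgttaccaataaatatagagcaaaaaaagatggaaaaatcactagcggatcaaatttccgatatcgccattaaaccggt
LCP5: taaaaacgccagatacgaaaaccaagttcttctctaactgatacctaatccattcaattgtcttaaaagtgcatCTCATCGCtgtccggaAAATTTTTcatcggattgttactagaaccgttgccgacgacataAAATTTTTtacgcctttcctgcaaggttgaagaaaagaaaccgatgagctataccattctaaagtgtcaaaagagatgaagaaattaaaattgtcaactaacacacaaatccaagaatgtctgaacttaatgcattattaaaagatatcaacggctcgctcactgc
PWP2: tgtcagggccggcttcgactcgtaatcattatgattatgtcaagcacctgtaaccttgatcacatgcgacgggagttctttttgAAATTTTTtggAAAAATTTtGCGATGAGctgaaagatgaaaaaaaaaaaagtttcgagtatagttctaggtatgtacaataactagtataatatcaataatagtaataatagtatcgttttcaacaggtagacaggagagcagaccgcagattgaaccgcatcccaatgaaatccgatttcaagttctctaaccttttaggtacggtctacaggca
NOP14: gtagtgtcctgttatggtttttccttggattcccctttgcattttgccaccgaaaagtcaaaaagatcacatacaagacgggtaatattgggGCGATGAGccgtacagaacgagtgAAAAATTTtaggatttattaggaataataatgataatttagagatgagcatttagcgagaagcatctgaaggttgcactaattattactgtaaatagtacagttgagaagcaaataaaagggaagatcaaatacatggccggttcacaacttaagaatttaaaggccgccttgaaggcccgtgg

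In BFR2 8 bases separated the RRPE core from the PAC core, and in PWP2 3 bases separated the nearest pair of cores. In LCP5 and NOP14 the nearest pair had the other order, with PAC farther from the start codon. Each also held another PAC core on the start-codon side of RRPE, in lower case. These cores began 74 bases before the start codon in LCP5 and 92 in NOP14. The 3 genes that were not called are shown for contrast and were picked after their values were seen, with core matches of either motif and full PAC in capitals. They lie at chrX:438615-438914 (plus) for MPP10, chrIII:65519-65818 (minus) for RRP7 and chrIV:1206334-1206633 (minus) for ESF1.
MPP10: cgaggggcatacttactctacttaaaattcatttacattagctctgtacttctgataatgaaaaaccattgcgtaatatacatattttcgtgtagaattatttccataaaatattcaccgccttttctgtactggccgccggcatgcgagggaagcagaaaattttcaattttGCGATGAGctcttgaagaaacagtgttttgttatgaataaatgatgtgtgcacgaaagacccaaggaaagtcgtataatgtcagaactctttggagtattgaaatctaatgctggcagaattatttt
RRP7: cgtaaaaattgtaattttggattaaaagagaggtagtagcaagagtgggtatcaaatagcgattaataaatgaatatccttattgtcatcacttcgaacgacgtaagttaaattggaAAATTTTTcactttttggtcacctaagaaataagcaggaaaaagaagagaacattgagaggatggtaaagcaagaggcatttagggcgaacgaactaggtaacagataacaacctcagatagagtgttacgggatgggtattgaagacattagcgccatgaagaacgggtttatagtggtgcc
ESF1: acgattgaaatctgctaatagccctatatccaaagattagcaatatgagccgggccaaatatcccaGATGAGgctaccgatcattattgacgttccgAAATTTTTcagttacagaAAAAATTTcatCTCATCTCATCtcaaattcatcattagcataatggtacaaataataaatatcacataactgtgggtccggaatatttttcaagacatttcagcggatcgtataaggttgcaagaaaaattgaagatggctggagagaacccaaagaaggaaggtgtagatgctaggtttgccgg

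MPP10 held full PAC and no RRPE core, RRP7 held 1 RRPE core and no PAC core, and ESF1 held 3 PAC cores and 2 RRPE cores without a full PAC. A lack of match says only that these letters are not in this window. UTP22, at -2.01, had no match of any of the 3 motifs in its window.

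Over all 45 genes, full PAC was found in 23 promoters (51.1%), against 236 of 6001 annotated protein-coding genes (3.93%). The PAC core was found in 42 (93.3%), against 20.4% of all promoters, and the RRPE core in 37 (82.2%), against 14.1%. Full PAC together with the RRPE core was found in 19 (42.2%), against 2.27%, and both cores in 35 (77.8%), against 5.63%. The 61 core PAC matches upstream of a start codon began a median of 109 bases before it (67 to 229), and the 58 RRPE cores a median of 134 bases before it (12 to 245). In UTP4 the only PAC match lay inside the coding sequence, as did that of ESF2. Where both cores were present the nearest pair was a median of 9 bases apart (3 to 46). In this nearest pair the RRPE core lay upstream of the PAC core in 29 of 35 genes. The median log2 fold change was -1.39 in the 23 genes with full PAC and -1.46 in the 22 without it, most of which held the PAC core. Among the promoters of other genes the median was -0.77 with full PAC and 0.06 without it. Neither difference was tested.

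**Figure D4:**
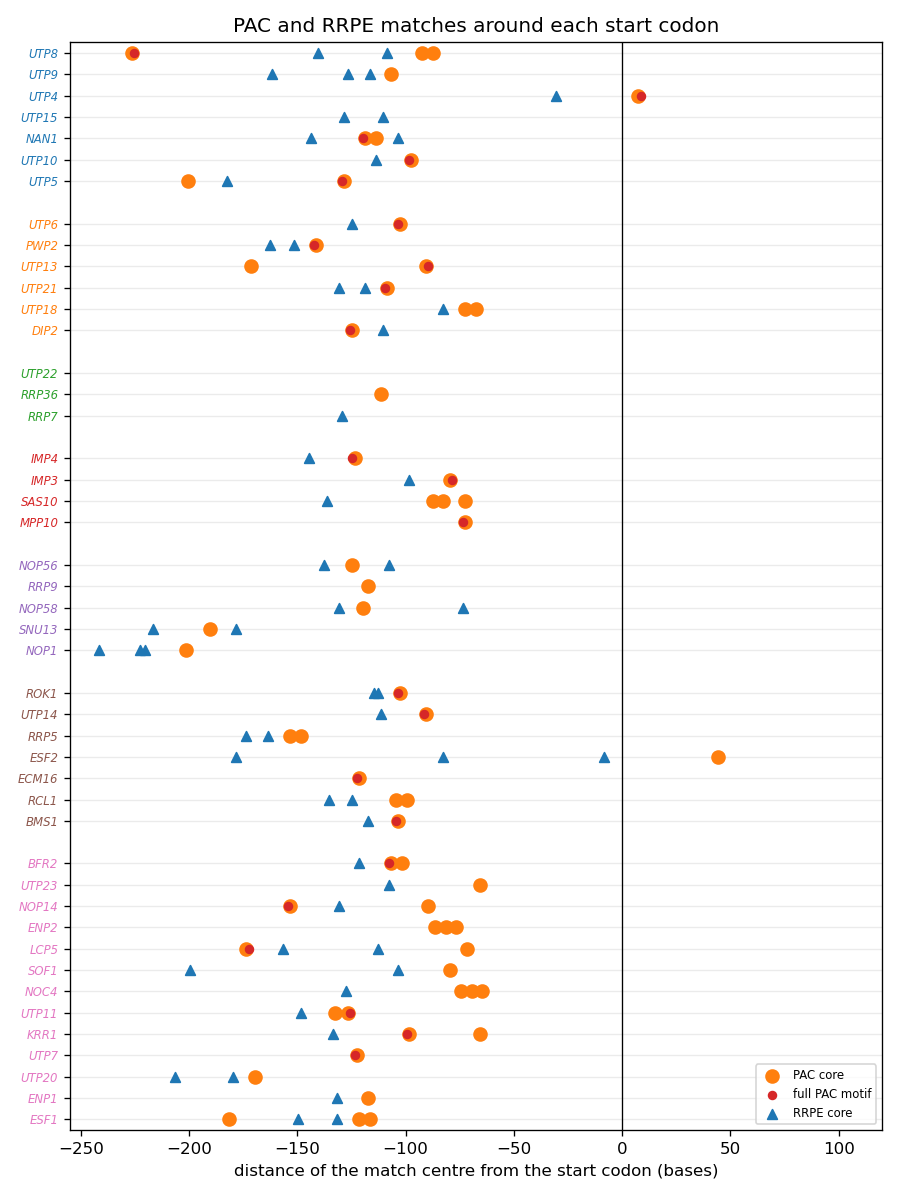
Distance in bases of each motif match from the start codon (vertical line, upstream to the left) for the 45 genes, grouped by module. Large orange points are PAC cores, small red points full PAC matches and blue triangles RRPE cores. The quartiles of the first base of the match are 89 and 127 bases upstream for PAC cores and 116 and 159 for RRPE cores, and UTP22 has none.

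The genes of regulators that bind these elements or act on promoters of ribosome synthesis genes moved in both directions. Of 5 tested, DOT6 rose by 1.47 ± 0.16, from 101 and 107 CPM in the wild type to 284 and 292 CPM in the deletion, and STB3 rose by 1.63 ± 0.21, from 31.4 and 41.0 CPM to 100.3 and 123 CPM. TOD6, the paralog of DOT6, fell by 0.67 ± 0.20, from 45.3 and 57.6 CPM to 34.8 and 29.8 CPM. SFP1, an activator gene, rose by 1.195 ± 0.369, with deletion libraries at 35.0 and 81.8 CPM above wild-type libraries at 25.2 and 26.0 CPM, and SCH9, a kinase gene, rose by 1.30 ± 0.25. The call of TOD6 ended without either wild-type library. That of SFP1 ended under scaling by totals or the upper quartile, and its change was 0.46 without deletion library 2 and 1.69 without deletion library 1. These are transcript levels, and the activity of the proteins was not measured.

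The genes that face the same intergenic region moved in both directions. For 18 of the 45 genes the next annotated gene upstream is protein-coding and transcribed away from it. Of these 18 neighbours 7 were called lower, 6 higher and 5 neither, with a median log2 fold change of 0.17. Over all genes 24.9% were called lower and 26.9% higher. The shortest such region, of 250 bases, separates IMP3, which fell by 1.27 ± 0.24, from MRPL6, a mitochondrial ribosomal protein gene that rose by 0.89 ± 0.16. NOP14 fell by 1.92 ± 0.24, and RPN5, a proteasome lid gene 337 bases away, rose by 1.07 ± 0.16. BFR2 fell by 2.32 ± 0.22, and ATP5, a gene of the mitochondrial ATP synthase 812 bases away, rose by 1.29 ± 0.17. In these 3 pairs a processome gene and its neighbour were thus called in opposite directions. Other neighbours fell with the processome gene. RPC53, an RNA polymerase III subunit gene 324 bases from SAS10, fell by 1.25 ± 0.20, and NSA2, a 60S assembly gene 301 bases from LCP5, fell by 0.72 ± 0.20. These neighbours were named after their values were seen.

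The other genes of the small-subunit pathway followed a similar course. Of 36 further small-subunit assembly genes 31 fell, 4 did not pass and 1 rose, with a median of -1.25. The shares over all tested genes were 24.9% lower and 26.9% higher. EMG1, a methyltransferase of 18S rRNA that works with Nop14, was at 81.2 and 90.4 CPM in the wild type and at 17.8 and 21.3 CPM in the deletion, a change of -2.13 ± 0.19. TSR2 fell by 1.78 ± 0.18, and the helicase genes DBP8 and RRP3 changed by -1.64 ± 0.20 and -2.04 ± 0.26. DBP8 encodes the helicase that Esf2 activates, so both genes of that pair fell. The gene that rose was RIO1, a kinase of late pre-40S maturation, at 0.70 ± 0.22. Its call ended under scaling by totals or the upper quartile and when either wild-type library was left out. The 4 that did not pass were NOB1 at 0.36 ± 0.18, PNO1 at -0.17 ± 0.21, RRP8 at -0.41 ± 0.22 and SQS1 at 0.04 ± 0.24, and they were named after their values were seen. NOB1, the nuclease that makes the final cut at the end of 18S rRNA, was at 101 and 104 CPM in the wild type and at 144 and 118 CPM in the deletion.

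For the 60S subunit, 58 of 71 assembly genes fell, 12 did not pass and 1 rose, with a median of -1.22. The lowest p among them belonged to NOG2, MRT4, MAK16 and DRS1, with changes of -2.06 ± 0.19, -1.93 ± 0.20, -2.40 ± 0.25 and -1.99 ± 0.21. The gene that rose was RSA1, at 1.88 ± 0.24, from 23.4 and 22.6 CPM in the wild type to 67.9 and 102 CPM in the deletion (adjusted p = 0.000995). Rsa1 is known for 60S assembly and also acts as a chaperone in the assembly of box C/D particles, whose proteins Snu13, Nop56, Nop58 and Nop1 are encoded by genes that fell. Beside these counts, 24.9% of all tested genes were called lower and 26.9% higher. Whether the 3 lists differ in their fall was not tested.

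**Figure D5:**
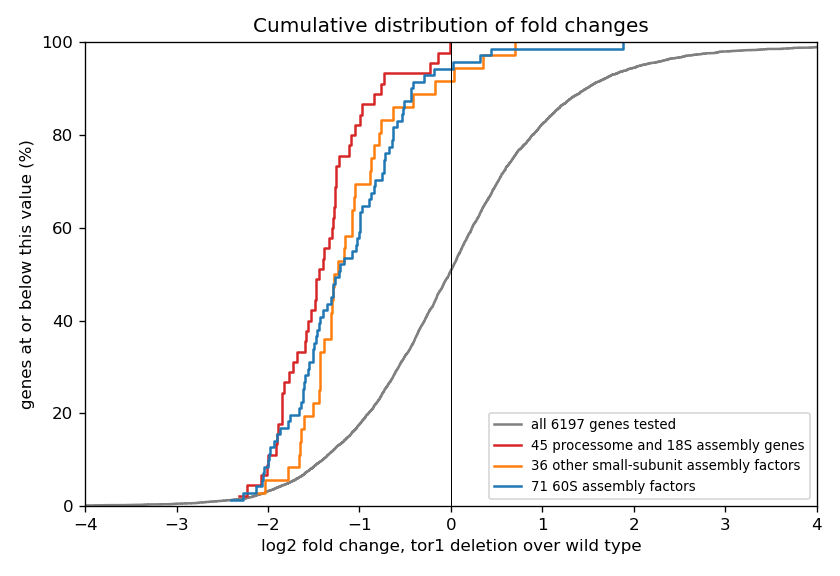
Cumulative share (%) of genes at or below each log2 fold change for the 45 processome genes, 36 other small-subunit assembly genes, 71 assembly genes of the 60S subunit and all 6197 genes tested. The processome curve reaches 100% below 0, and the curve of all genes crosses 50% at -0.02.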

How the data were processed

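Per the labels' protocols, RNA was isolated with a RiboPure kit, mRNA was taken with a Dynabeads mRNA DIRECT kit, which captures poly(A) RNA, and libraries were made with an Ion Total RNA-Seq kit for Ion Torrent. Whole-number read counts for each gene were deposited by the authors, and the submitters' processing notes name FastQC, Subread, featureCounts and the build sacCer3, without versions. No source used here gives the strand setting, the alignment settings or the annotation release. A table deposited by the authors holds log10 values, and each was found to be log10 of 1 plus the count over a library constant. It served as an alternative.

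All genes were tested by quasi-likelihood in edgeR 4.0.16 (R 4.3.3), with strain as the only term, filterByExpr (6197 of 7127 features kept) and TMM factors. Adjustment followed Benjamini and Hochberg over all 6197 genes (threshold 0.05), and the common biological coefficient of variation came to 17.8%. Each SE is the size of the log2 fold change over the root of its F value. The procedure was also run on simulated data in which few genes changed, as many up as down. Far more genes were called in the real data, so that run does not bear on the choice of scaling. Alternatives were DESeq2 1.42.0, limma 3.58.1 on the authors' table, other scalings and filters, a replicate block and leaving out each library.

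Depth ranged from 8060480 to 14446057 counts, so the 3 counts that a count of 0 still allows amount to between 0.208 and 0.372 CPM. The 45 genes had between 41 and 2806 counts per library. None overlapped another gene of the R64 annotation (the assembly that sacCer3 is built on) or had a near-identical copy (blastn 2.17.0, at least 90% identity over at least 50% of the shorter gene). The 958 features without an R64 entry could not be checked for overlap. Promoter windows were read from the R64 genome by RefSeq, since no promoter table was used.

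The members, modules and lists were chosen with earlier results of these data known. Every member may be named. Values in each library were given for the smallest and largest p of a module, for genes not called and for the U3 particle. Of other lists, the 4 smallest p, each rise, and all genes of lists of at most 5 were named. Outside this rule, library values of RRP36, UTP11 and NOB1, and the names PNO1, RRP8 and SQS1, were added after their values were seen.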

Additional observations from a re-analysis of the deposited data

How the results depend on the processing

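The 45 genes gave 42 lower calls with DESeq2, RLE factors, no low-count filter, a filter of 50 counts in 2 libraries, the authors' values with limma, the replicate block and without cytosolic ribosomal protein genes. There were 43 with library totals, 44 with upper quartile factors, 37 at an adjusted p of 0.01 and 35 to 43 with 1 library left out, and none of these settings called a gene of the 45 higher. Of 585 comparisons of a member with its value under another setting, 570 stayed called or not called as before. Another 11 lost the call, all without a wild-type library, and 4 gained one. Direction never reversed where either fit called the gene. ESF1, not called under any setting, changed sign, from -0.20 to 0.16 with 1 library left out.

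Scaling moved sizes. With library totals and upper quartile factors the median of the 45 genes was -1.76 and -1.84. That of UtpA was also -1.76 and -1.84, and that of the U3 particle proteins -1.91 and -1.99. The median of UtpB was -2.10 and -2.17, of UtpC -1.89 and -1.95 and of the Mpp10 module -1.33 and -1.40. That of the enzymes was -1.61 and -1.67, and that of the other factors -1.66 and -1.73. All genes called lower numbered 2328 and 2508, and 0 other small-subunit assembly genes rose under either, since these scalings shift all genes down. With 1 library left out the median of the 45 genes ranged from -1.54 to -1.39. That of UtpC ranged from -1.79 to -1.32 and that of the enzymes from -1.53 to -1.10. The medians of UtpA and of the U3 particle proteins moved over wider ranges than these. Both were smallest in size without deletion library 1 and largest without deletion library 2. All genes called lower ranged from 915 to 2179 and higher from 1045 to 2281, with rises of 0 to 2 other small-subunit genes and 1 to 3 assembly genes of the 60S subunit. With a library left out, its strain's other library is assumed to vary like the other strain, so the wild type alone sets the spread without a deletion library. The cause of the other changes was not tested. Without ribosomal protein genes in the denominator, the wild-type share was 0.320%. With the PAC core in place of full PAC, 42 promoters matched.

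The replicate numbers do not pair the libraries by any label, and deviations of equal numbers correlated at -0.07 across genes. The replicate block called 42 of the 45 genes lower, with a median of -1.47, and 1667 of all genes lower. Depth limits RRP36, the gene with the fewest counts, to 42 and 41 counts in the deletion libraries.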

Other observations

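The promoter elements were also seen outside the processome genes. Full PAC together with the RRPE core was found in the promoter window of 117 other protein-coding genes, of which 115 were tested. Of these, 81 were called lower and 10 higher, with a median log2 fold change of -1.06, beside 0.06 for the other genes without the pair. Over all tested genes 24.9% were called lower and 26.9% higher. The 117 genes with the pair were picked by sequence alone, without regard to function. They may include genes of the assembly lists described above, and no test was made.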
